A study of Homo sapiens with 14 samples.

Results

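The genes described here are GAD1, GAD2, SLC32A1 and ABAT, which make, load and break down the inhibitory transmitter GABA. They are 4 of the 58051 genes in the deposited table, and all 4 passed the filter on low values that left 17102 genes to be tested. They were selected on their role and on the measured levels of GAD1, which are higher in the knockout than in wild type and higher with doxycycline than without it. The values of the 4 genes in those contrasts, and the GAD1 values that follow from them, are therefore given as a description with no test.

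GABA is made from glutamate by glutamate decarboxylase, an enzyme that needs pyridoxal phosphate and that GAD1 and GAD2 encode in separate forms. The GAD1 form is spread through the cell, and the GAD2 form is tied to synaptic vesicles at nerve endings. SLC32A1 encodes the transporter that fills vesicles with GABA and glycine, and ABAT encodes the mitochondrial transaminase that turns GABA into succinic semialdehyde. In the ventral forebrain the medial ganglionic eminence (MGE) gives rise to GABA-releasing interneurons, and transcription factors of the DLX, NKX and LHX families mark the path from its progenitors.

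RNA was sequenced from MGE-like progenitors made from H9, a human embryonic stem cell line, and collected at day 25 of differentiation. The 14 libraries form 4 groups. OE with Dox (n = 3) carried an inducible Ctnnb1 overexpression construct and received doxycycline at 0.1 µg/mL from day 17 to collection. OE without Dox (n = 3) carried the construct and received no drug, KO (n = 5) was labelled Ctnnb1 knockout and WT (n = 3) wild type. In all groups TGF-beta and BMP signalling was blocked up to day 6 with SB431542 (2 µM) and LDN193189 (200 nM). Ventral identity was then induced with SHH (250 ng/mL) and purmorphamine (0.3 µM), which activates the same pathway, between day 10 and day 17. Doxycycline was given to none of the WT libraries, and its own effect and that of the construct cannot be told apart. The form of beta-catenin expressed, the promoter of the construct, the way the knockout was made and the number of clones are not given in the sources used here. Nor do the labels say whether libraries came from separate cultures, so p-values measure the spread between these libraries, which may be technical.

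Values are normalized counts, gene read counts divided by 1 size factor per library, and levels are compared between genes only per kilobase of exon. Libraries held 5233270 to 5639725 reads in genes. CTNNB1, the targeted gene, had 26028, 23861 and 31290.1 normalized counts in OE with Dox, against 3084, 3318 and 3633 in OE without Dox. It had 2483, 2779, 2385, 2178 and 2090.3 in KO, against 4393, 3803 and 3248 in WT, so transcript of the gene was still counted in the libraries labelled KO. The MGE factor NKX2-1 was present in every library, at 910.5, 274 and 296 in OE with Dox, 1378 to 2394 in OE without Dox, 2387 to 3475 in KO and 373 to 664 in WT. In bulk RNA, fewer cells of a type and less RNA per cell cannot be told apart.

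Sequence just upstream of the annotated starts is shown for each gene, because GAD2, SLC32A1 and ABAT went one way with doxycycline and GAD1 the other. RefSeq windows of 300 bases (build GRCh38.p14), 250 bases before to 50 after a start, were found for 4 of 4 genes. Letters searched on both strands were CTTTGAT and CTTTGAA, cores of TCF/LEF sites, TAATTA, a core of homeodomain sites, and TATAAA, the TATA box, and none of the matches in these windows overlaps another motif. Matches are in capitals below. The GAD1 window lies in exons of longer transcripts, so only 30 bases from position -184 are printed, chr2:170816703-170816732 on the plus strand. The GAD2 stretch is chr10:26216122-26216371, the SLC32A1 stretch is chr20:38724236-38724485 and the ABAT stretch, before a start inside the gene, is chr16:8712587-8712836, all on the plus strand.
GAD1: ctggaTTTATAatcgcccTATAAAgctcca
GAD2: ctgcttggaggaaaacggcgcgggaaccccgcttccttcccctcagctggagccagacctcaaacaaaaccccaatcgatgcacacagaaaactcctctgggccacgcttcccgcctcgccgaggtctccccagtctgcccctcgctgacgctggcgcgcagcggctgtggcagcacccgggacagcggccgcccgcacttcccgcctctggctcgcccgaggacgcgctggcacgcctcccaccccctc
SLC32A1: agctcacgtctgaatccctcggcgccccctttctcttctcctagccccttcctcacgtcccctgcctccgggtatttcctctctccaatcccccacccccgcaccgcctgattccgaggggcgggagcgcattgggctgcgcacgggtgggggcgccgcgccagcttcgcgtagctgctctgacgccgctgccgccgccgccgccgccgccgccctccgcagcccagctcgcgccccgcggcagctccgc
ABAT: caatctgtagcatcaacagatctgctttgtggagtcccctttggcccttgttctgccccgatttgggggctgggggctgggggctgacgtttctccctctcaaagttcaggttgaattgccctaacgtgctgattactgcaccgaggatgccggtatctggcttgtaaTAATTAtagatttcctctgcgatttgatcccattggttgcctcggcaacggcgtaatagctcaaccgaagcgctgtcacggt
GAD1 held TATAAA at position -166 and its reverse complement at -179, a motif found in 11.6% of the 34943 windows of all genes. ABAT held TAATTA at -82 of this start, a site that also lies in a neighbouring ABAT window, and a motif found in 4.85% of windows. ABAT has 4 windows, and the one at the start of the gene held none of the motifs. The shares are per window, so a gene with several windows is more likely to hold a motif than they state. Whether any match bears on the levels was not tested. CTTTGAT, found in 2.63% of windows, and CTTTGAA, found in 4.44%, were in none of the windows of the 4 genes. GC content was 61.7% in the GAD1 window, 67.7% in the first GAD2 window 74.0% in the SLC32A1 window and 52.7% in the ABAT window shown (76.3%, 53.3% and 43.0% in the other ABAT windows), against a median of 58.7% over all windows.

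GAD1 (ENSG00000128683, hg38 chromosome 2, 170813213 to 170861151, plus strand) was the one gene of the 4 that was higher both with doxycycline and in the knockout. It had 2525, 2848 and 3313 normalized counts in OE with Dox, against 1009.6, 414 and 349 in OE without Dox. It had 864, 532, 758, 656 and 625 in KO, against 253, 265 and 215 in WT. All OE with Dox libraries lay above every other library, and all KO libraries above every WT library. OE without Dox was uneven: replicate 1 exceeded all 5 KO libraries, while replicates 2 and 3 lay below them. The means were 2895 ± 396 in OE with Dox, 591 ± 364 in OE without Dox, 687 ± 128 in KO and 244 ± 26.0 in WT (SD, n as above). The limma log2 fold was 2.45 (SE 0.29) for OE with Dox against OE without Dox and 1.47 (SE 0.26) for KO against WT. Without OE without Dox replicate 1 the doxycycline fold was 2.92.

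GAD2 (ENSG00000136750, hg38 chromosome 10, 26216665 to 26304558, plus strand) did not follow GAD1. It had 32.3, 44.6 and 5.53 normalized counts in OE with Dox, the last being 6 reads, against 305, 205 and 221 in OE without Dox. It had 217, 255, 353, 304 and 223 in KO, against 149.6, 207 and 237 in WT. The OE with Dox libraries lay below all 11 others, and the KO and WT ranges overlapped. The log2 fold was -3.49 (SE 0.53) for OE with Dox against OE without Dox and 0.45 (SE 0.48) for KO against WT, where the 95% interval ran from -0.58 to 1.48. Without OE with Dox replicate 3, the library with 6 reads, the doxycycline fold was -2.63.

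SLC32A1 (ENSG00000101438, hg38 chromosome 20, 38724486 to 38729372, plus strand), the vesicular transporter gene, was low with doxycycline as well. It had 19.4, 32.5 and 15.7 normalized counts in OE with Dox, against 221, 114 and 167 in OE without Dox. It had 227, 291, 246, 219 and 207 in KO, against 178, 126 and 159 in WT. Again the OE with Dox libraries lay below all others, and the KO libraries did not overlap with WT. The log2 fold was -2.85 (SE 0.26) for OE with Dox against OE without Dox and 0.62 (SE 0.23) for KO against WT.

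ABAT (ENSG00000183044, hg38 chromosome 16, 8674596 to 8784575, plus strand), the gene of GABA breakdown, was the steadiest of the 4 within groups, with a pooled within-group SD of 0.18 on the log2 scale, against 0.42 for GAD1, 0.36 for SLC32A1 and 0.73 for GAD2. It had 576, 523 and 375 normalized counts in OE with Dox, against 2132, 1887 and 2114 in OE without Dox. It had 2229.9, 2199, 2085, 2508 and 2476 in KO, against 1196, 1459 and 1295 in WT. No OE with Dox library reached the lowest of the others, and KO and OE without Dox both lay above WT. The log2 fold was -2.08 (SE 0.15) for OE with Dox against OE without Dox and 0.81 (SE 0.13) for KO against WT.

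**Figure D1:**
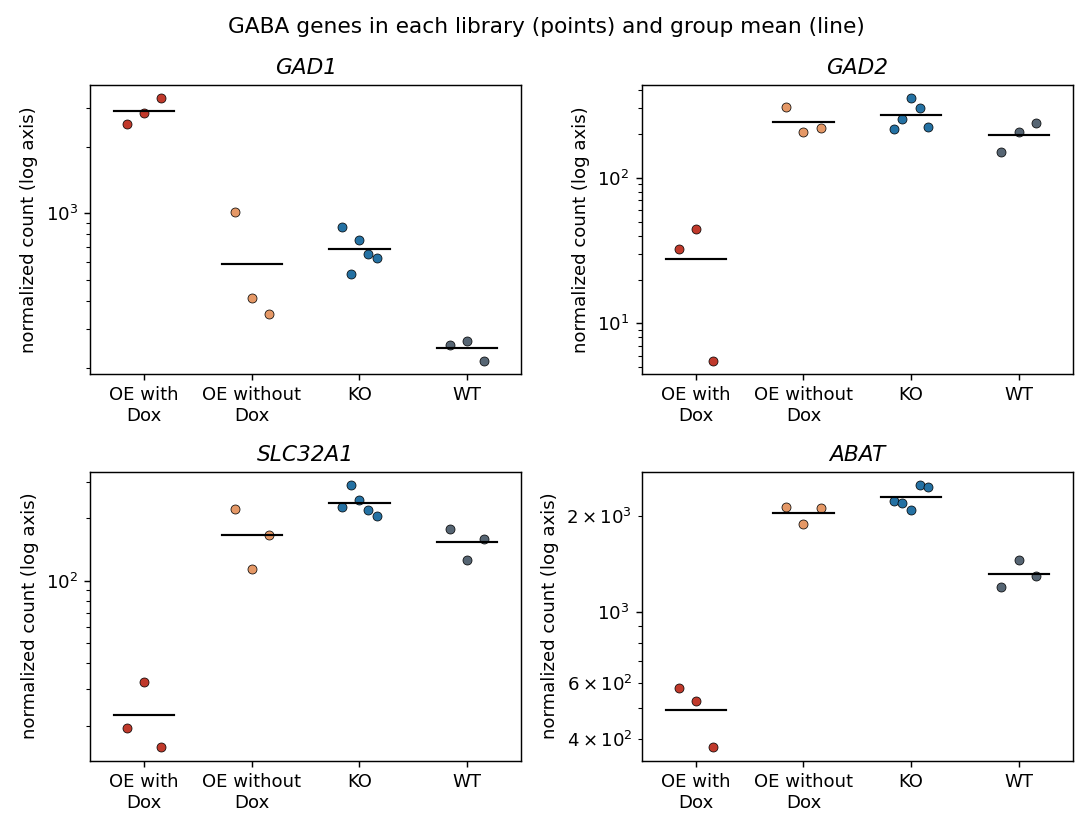
Normalized counts (log axis) of GAD1, GAD2, SLC32A1 and ABAT in each of the 14 libraries (points) with the group mean (line), for OE with Dox, OE without Dox, KO and WT. GAD1 is at 2525 to 3313 in OE with Dox and at 349 to 1009.6 in OE without Dox, whereas the other genes are lowest in OE with Dox.

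Of the 4 genes, 1 was higher without overlap in OE with Dox than in OE without Dox and 3 were lower, contrasts in which 21.2% of all tested genes were higher and 19.5% lower without overlap. In KO against WT, 3 of the 4 were higher without overlap, against 8.61% of all tested genes. Nothing is read from these counts, since the contrasts were used to choose the genes. The order of group means was OE with Dox, KO, OE without Dox, WT for GAD1, with KO and OE without Dox overlapping. For GAD2, SLC32A1 and ABAT it was KO, OE without Dox, WT, OE with Dox. Within that order KO, OE without Dox and WT overlapped for GAD2, KO and OE without Dox overlapped for all 3 genes, and OE without Dox and WT overlapped for SLC32A1 and not for ABAT.

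The contrasts that the choice did not use were tested with limma on log2 values (1 was added to each normalized count), and p-values were Benjamini-Hochberg adjusted over 17102 genes. They share libraries with one another and with the contrasts above. GAD1 was chosen on its levels in these same libraries, so its p-values here are not independent of that choice and are no separate support. All 4 genes separated OE with Dox from KO. GAD1 was higher in OE with Dox than in KO, with a log2 fold of 2.09 ± 0.26 (SE; adjusted p = 1.0e-05). Lower were GAD2 with -3.63 ± 0.48 (adjusted p = 4.6e-05), SLC32A1 with -3.40 ± 0.23 (adjusted p = 1.9e-09) and ABAT with -2.24 ± 0.13 (adjusted p = 2.9e-10). The direction was the same in 3 of 3 OE with Dox libraries set against all 5 KO libraries for each gene. Of all tested genes, 16.8% were called higher and 15.6% lower in this comparison, and 17.5% were higher and 15.6% lower without overlap.

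OE with Dox against WT gave the same direction for the genes that could be tested. Log2 folds were -3.19 ± 0.53 for GAD2 (SE; adjusted p = 0.00068), -2.77 ± 0.26 for SLC32A1 (adjusted p = 2.8e-07) and -1.44 ± 0.15 for ABAT (adjusted p = 8.5e-07), each lower in 3 of 3 libraries. GAD1 stood 3.56 (SE 0.29) higher on the log2 scale, as a description. Of all tested genes, 10.4% were called higher and 10.1% lower, and 16.1% and 15.4% did so without overlap.

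The control line without the drug was itself above WT for GAD1 and ABAT, though the GAD1 levels of both groups were read in the choice. In OE without Dox against WT, the log2 fold of GAD1 was 1.11 ± 0.29 (SE; adjusted p = 0.034 by limma) and that of ABAT 0.64 ± 0.15 (adjusted p = 0.014), both higher without overlap. Of all tested genes, 3.43% were called higher and 2.32% lower, and 11.6% were higher without overlap. The GAD1 call was lost when the replicate number was a block (log2 fold 1.11, adjusted p = 0.069). It was also lost when OE without Dox replicate 1 was left out (0.64, adjusted p = 0.090), and at a like fold without WT replicate 1 (adjusted p = 0.083), 2 (adjusted p = 0.062) or 3 (adjusted p = 0.14). The ABAT call was lost, at the same direction, without WT replicate 1 (0.57, adjusted p = 0.051) or 3 (adjusted p = 0.055), and without OE without Dox replicate 1 (adjusted p = 0.070) or 3 (adjusted p = 0.056). GAD2 (log2 fold 0.30, 95% interval -0.85 to 1.45, adjusted p = 0.83) and SLC32A1 (0.08, -0.46 to 0.62, adjusted p = 0.91) did not pass.

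KO and OE without Dox could not be separated on the genes tested. The log2 fold of KO against OE without Dox was 0.15 for GAD2 (95% interval -0.89 to 1.18, adjusted p = 0.99 by limma) and 0.17 for ABAT (-0.11 to 0.44, adjusted p = 0.88). For SLC32A1 it was 0.55 (0.06 to 1.03, adjusted p = 0.45), with 2.11% of all tested genes called in either direction. GAD1 stood 0.36 (SE 0.26) higher in KO, as a description, and 0.83 higher without OE without Dox replicate 1. None of the 4 genes was without overlap, against 6.86% of all tested genes.

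**Figure D2:**
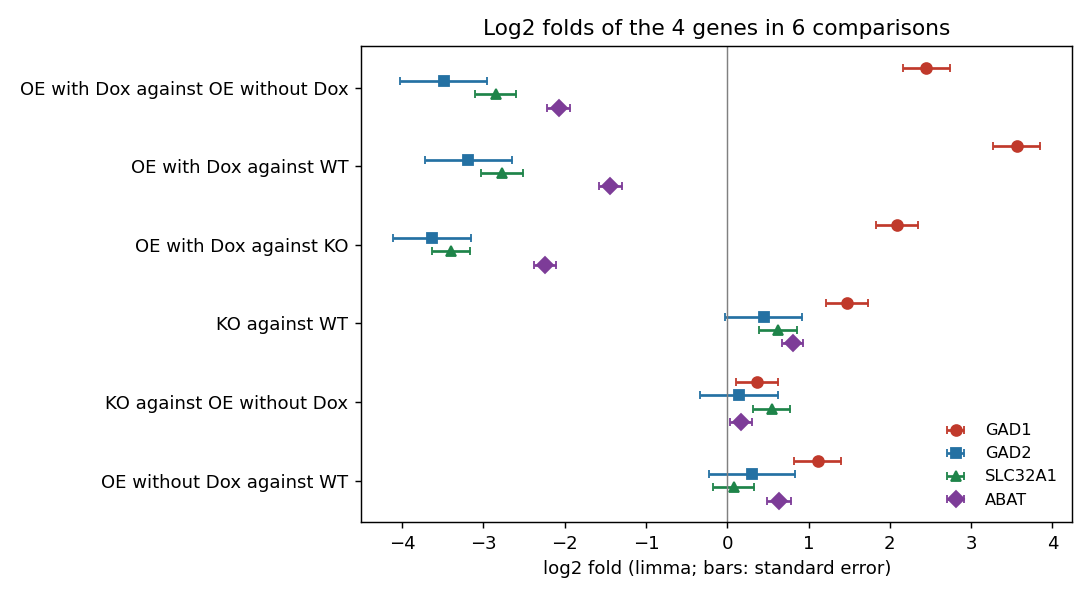
Log2 folds from limma (points; bars are standard errors) of GAD1, GAD2, SLC32A1 and ABAT in 6 comparisons. In the comparisons of OE with Dox, GAD1 lies at 2.09 to 3.56 and the other genes at -3.63 to -1.44, while in the comparisons without it every point is above 0.

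Per kilobase of exon, the decarboxylase transcript was almost GAD1 alone with doxycycline and near an even mix in WT. The length used was that of all annotated exons of a gene together, 8242 bases for GAD1 and 5890 for GAD2. The transcripts expressed may be shorter, and the ratios between genes depend on this length. The ratio of GAD1 to GAD2 per kilobase was 55.8, 45.6 and 428 in OE with Dox, the last resting on 6 GAD2 reads, against 2.37, 1.44 and 1.13 in OE without Dox. It was 2.84, 1.49, 1.53, 1.54 and 2.00 in KO, against 1.21, 0.912 and 0.647 in WT. GAD1 thus made up 97.9% to 99.8% of the GAD1 and GAD2 sum per kilobase in OE with Dox, 53.0% to 70.3% in OE without Dox, 59.8% to 74.0% in KO and 39.3% to 54.7% in WT. The mean log2 ratio differed by 5.82 between OE with Dox (6.69 ± 1.79, n = 3) and KO (0.87 ± 0.40, SD, n = 5). The exact two-sided permutation p was 0.036 (adjusted 0.071 over 2 comparisons), the smallest two-sided value that 56 arrangements can give. GAD1 and GAD2 each separated these groups in full, as described above, so this p was fixed in advance and is no further support. Between OE without Dox (0.65 ± 0.55) and WT (-0.16 ± 0.45, SD, n = 3 each) the mean log2 ratio differed by 0.81, with an exact permutation p of 0.2 in a design that cannot go below 0.1.

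The sum of GAD1 and GAD2 per kilobase was 312 to 403 in OE with Dox, 79.9 to 174 in OE without Dox, 108 to 152 in KO and 56.1 to 67.3 in WT, so total decarboxylase transcript was highest where the vesicle transporter was lowest. GAD1 per kilobase was 27.1 to 65.4 times SLC32A1 in OE with Dox, 0.647 to 1.41 times in OE without Dox, 0.566 to 1.18 times in KO and 0.417 to 0.650 times in WT. ABAT per kilobase was 0.0959 to 0.190 times the decarboxylase sum in OE with Dox, 1.26 to 2.72 times in OE without Dox, 1.41 to 2.24 times in KO and 2.01 to 2.23 times in WT. These are descriptions of transcript levels and not of enzyme amounts.

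**Figure D3:**
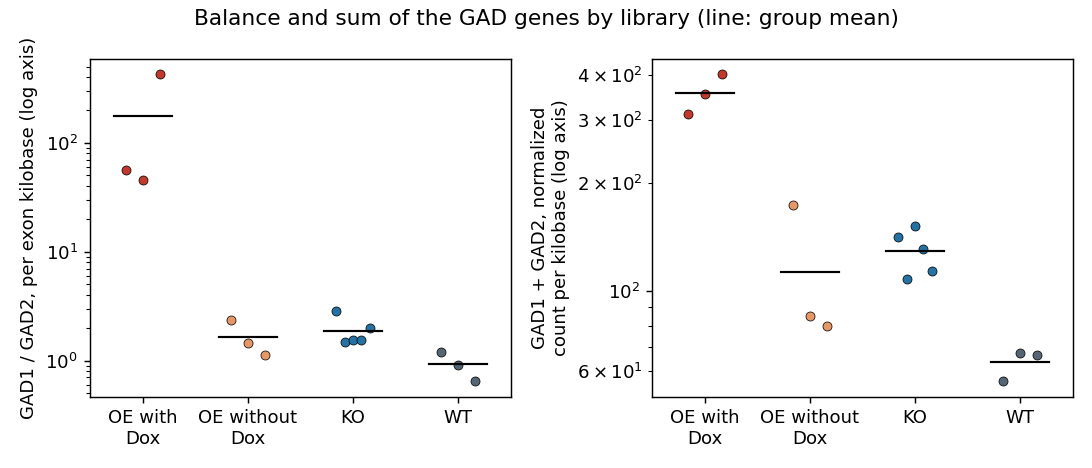
Ratio of GAD1 to GAD2 (left) and their sum (right), both from normalized counts per kilobase of exon on log axes, in each library (points) with the group mean (line). The ratio is at least 45.6 in OE with Dox and at most 2.84 elsewhere.

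Reads of genes that overlap GAD1 and ABAT on the other strand cannot be separated, since the library kit does not mark strand. The unnamed antisense gene ENSG00000235934 shares 611 exon bases with GAD1. It had 66.5, 58.6 and 62.7 normalized counts in OE with Dox, against 20.1, 6.48 and 4.53 in OE without Dox. It had 6.61 to 14.3 in KO, against 0 to 6.26 in WT, where a count of 0 allows 3 reads. These levels lie below those of GAD1 in every library and follow the same order of groups. TMEM186 shares 152 exon bases with ABAT and averaged 54.9 ± 4.47 in OE with Dox, 68.6 ± 10.1 in OE without Dox, 67.4 ± 7.94 in KO and 63.4 ± 8.50 in WT. Counts per gene do not separate the transcripts of GAD1, among them short forms that lack the enzyme domain.

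Pan-neuronal genes were lower with doxycycline, as were GAD2, SLC32A1 and ABAT and unlike GAD1, and most were higher in KO than in WT. The summed level of 15 pan-neuronal genes was 7753 to 8219 in OE with Dox, 19133 to 20974 in OE without Dox, 18574 to 22867 in KO and 11237 to 12696 in WT, and none was at 0. With doxycycline 11 of the 15 were lower than in OE without Dox and 1 was higher, where 12.8% of all tested genes were called higher and 12.9% lower, with a list median of -1.41 and 0.02 over all genes. In KO against WT 11 were higher and 1 was lower, where 6.64% of all tested genes were called higher and 7.15% lower, with a median of 0.77 and -0.02 over all genes. In OE without Dox against WT 5 were higher and none lower, where 3.43% of all tested genes were called higher and 2.32% lower. DCX, a microtubule protein of young neurons, had 866 ± 117 in OE with Dox, 5429 ± 811 in OE without Dox, 6174 ± 542 in KO and 2513 ± 451 in WT. The 1 higher gene with doxycycline was the axon growth gene GAP43, named after its values were seen, at 1774 ± 360 in OE with Dox and 838 ± 99.5 in OE without Dox (log2 fold 1.07, adjusted p = 0.0017 by limma). The count of higher genes became 2 without WT replicate 1 or OE without Dox replicate 2. It also became 2 with a replicate block, weights for library quality, DESeq2, or the compared groups fitted alone. The 1 lower gene in KO became 2 without KO replicate 5 or OE without Dox replicate 1 or 2. That count also became 2 with the replicate block or the compared groups fitted alone.

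Set against that sum, GAD1 stood apart from GAD2, SLC32A1 and ABAT. Per 1000 pan-neuronal counts GAD1 stood at 309 to 427 in OE with Dox, 18.2 to 48.1 in OE without Dox, 27.3 to 41.7 in KO and 19.1 to 21.7 in WT. ABAT stood at 48.4 to 70.5 in OE with Dox, against 95.1 to 110.5 in OE without Dox, and at 93.8 to 118 in KO, against 103 to 115 in WT. KO and WT therefore overlapped for ABAT on this scale and not for GAD1. GAD2 stood at 0.713 to 5.43 in OE with Dox, against 10.4 to 14.5 in OE without Dox, and at 9.74 to 15.9 in KO, against 12.9 to 21.1 in WT. SLC32A1 stood at 2.02 to 3.96 in OE with Dox, against 5.74 to 10.6 in OE without Dox, and at 9.04 to 15.7 in KO, against 9.93 to 15.3 in WT. GAD2 and SLC32A1 also overlapped between KO and WT, and both remained lower with doxycycline. Whether the number of neurons sets these levels was not tested.

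**Figure D4:**
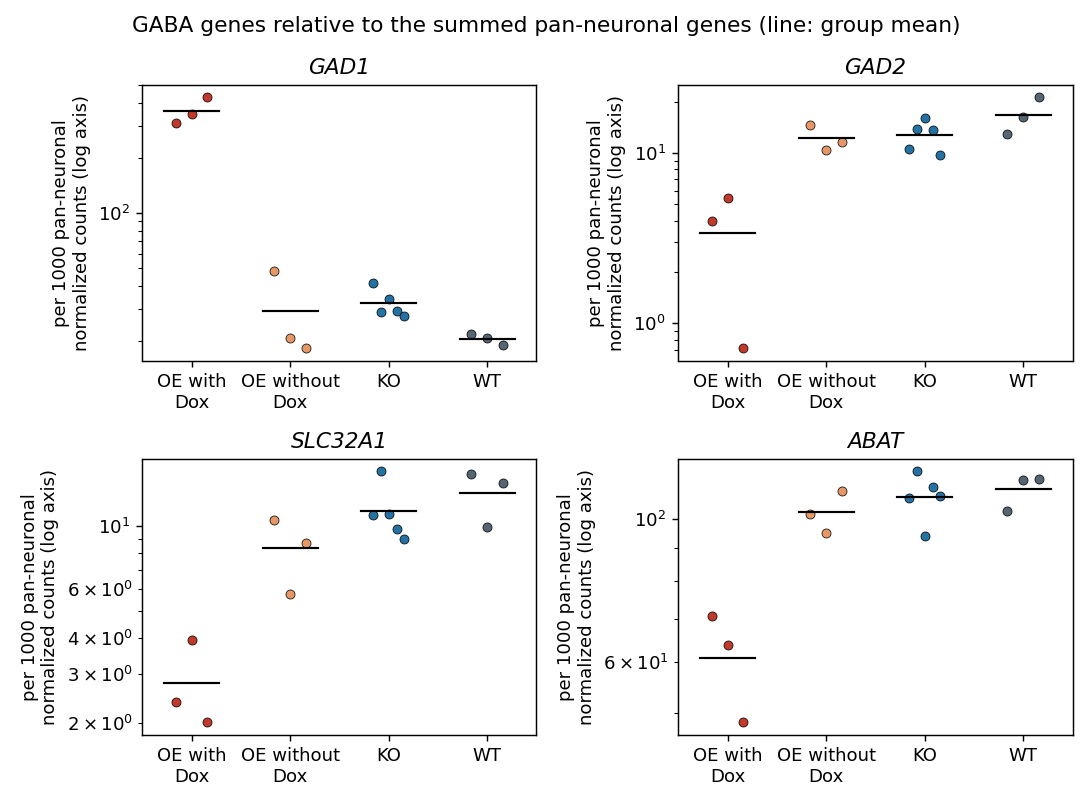
Level of each gene per 1000 normalized counts of 15 summed pan-neuronal genes (log axes) in each library (points) with the group mean (line). GAD1 is at 309 to 427 in OE with Dox, and ABAT, GAD2 and SLC32A1 overlap between KO and WT.

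Among transporters that return GABA to cells, SLC6A11, a transporter of glia, was scarce. It had 8.01 ± 7.46 normalized counts in OE with Dox, 11.9 ± 2.39 in OE without Dox, 18.9 ± 5.46 in KO and 15.9 ± 7.25 in WT. The log2 fold was -0.80 for OE with Dox against OE without Dox (SE 0.46, adjusted p = 0.23 by limma) and 0.27 for KO against WT (SE 0.42, adjusted p = 0.76), and neither passed, though without OE with Dox replicate 1 it was called lower with doxycycline. It was lower in OE with Dox than in KO (-1.40, SE 0.42, adjusted p = 0.014).

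Of 3 tested genes of the steps after ABAT, 1 was higher and none lower with doxycycline (12.8% and 12.9% of all tested genes), and none passed in KO against WT (6.64% and 7.15%). ALDH5A1, the dehydrogenase that clears succinic semialdehyde, had 220.1 ± 12.7 in OE with Dox, 231 ± 11.1 in OE without Dox, 237 ± 35.4 in KO and 209.9 ± 32.4 in WT. Its log2 fold was -0.07 (SE 0.16, adjusted p = 0.79 by limma) with doxycycline and 0.18 (SE 0.14, adjusted p = 0.51) in KO against WT. AKR7A2, a reductase of the same product, rose to 304 ± 45.0 in OE with Dox, against 207 ± 25.1 in OE without Dox (log2 fold 0.55, SE 0.16, adjusted p = 0.016). That call was lost without OE without Dox replicate 1 or OE with Dox replicate 2 or 3, where the adjusted p reached 0.090.

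Genes that supply glutamate and glutamine did not pass in KO against WT for any of 10 tested (6.64% of all tested genes were higher and 7.15% lower), with a list median of -0.04. With doxycycline 2 were higher and 2 lower (12.8% and 12.9% of all tested genes), with a median of 0.19. GLUL, glutamine synthetase, had 3088 ± 549 in OE with Dox and 2226 ± 116 in OE without Dox (log2 fold 0.46, adjusted p = 0.020 by limma), and the call was lost without OE without Dox replicate 3 or OE with Dox replicate 1 (adjusted p up to 0.12). The neuronal glutamine transporter SLC38A1 fell to 1506 ± 284 in OE with Dox, against 2249.8 ± 166 in OE without Dox (-0.59, adjusted p = 0.0051). SLC38A5 had 36.4 ± 25.4 in OE with Dox and 3.05 ± 1.06 in OE without Dox (2.97, adjusted p = 0.0011). Among 3 genes of the pyridoxal phosphate cofactor, PDXK, pyridoxal kinase, was higher in OE with Dox, at 609 ± 121, than in OE without Dox, at 358 ± 41.3 (0.75, SE 0.17, adjusted p = 0.0032), and none passed in KO against WT.

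A side route makes GABA from putrescine through amine oxidase and aldehyde dehydrogenase. In KO against WT 1 of its 5 tested genes was higher and 4 were lower (6.64% and 7.15% of all tested genes), with a list median of -1.18 and -0.02 over all genes. ALDH1A1, an aldehyde dehydrogenase known in mouse midbrain neurons to make GABA, fell to 5.20 ± 3.56 in KO, against 131 ± 52.8 in WT (log2 fold -4.56, SE 0.52, adjusted p = 2.2e-05 by limma). It did not change detectably with doxycycline, at 146 ± 60.5 in OE with Dox and 127 ± 59.1 in OE without Dox (0.22, adjusted p = 0.82). SAT1, the acetylase of polyamine breakdown, fell to 202 ± 33.9 in KO, against 613 ± 66.6 in WT (-1.60, adjusted p = 8.7e-05). SAT1 was also called lower in OE without Dox than in WT. It rose to 704 ± 204 in OE with Dox, against 248 ± 96.9 in OE without Dox (1.54, adjusted p = 0.00017). MAOB, monoamine oxidase B, had 67.2 ± 5.60 in OE with Dox and 10.1 ± 2.46 in OE without Dox (2.65, SE 0.40, adjusted p = 6.5e-05). Its lower value in KO, 6.39 ± 2.98 against 14.5 ± 2.72 in WT (-1.18, adjusted p = 0.035), was not called without any 1 of the WT libraries or KO replicate 2 (adjusted p up to 0.12). The calls of ODC1 (-0.46, adjusted p = 0.0060) and ALDH9A1 (0.38, adjusted p = 0.034) in KO were lost without WT replicate 3, that of ALDH9A1 also without WT replicate 2 or KO replicate 1 or 2, with adjusted p up to 0.058 and 0.15, and without WT replicate 3 the count of lower genes was 2.

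GADL1, a relative of the GAD genes whose enzyme acts on aspartate and cysteine sulfinic acid and not on glutamate, was near absent outside OE with Dox. It had 267, 323 and 273 normalized counts in OE with Dox, against 0, 0 and 0.907 in OE without Dox. KO libraries had 0 to 2.83 and WT libraries 0 to 4.33. Over the groups this was 933 reads in OE with Dox and 1 read in OE without Dox, given as a description. HDC, histidine decarboxylase, went the other way, with 26.5 ± 8.10 in OE with Dox and 113 ± 52.8 in OE without Dox (log2 fold -1.98, adjusted p = 8.6e-05 by limma). HDC rose to 237 ± 58.6 in KO, against 33.5 ± 6.04 in WT (2.77, SE 0.28, adjusted p = 1.7e-06). It was also called higher in OE without Dox than in WT, and higher in KO than in OE without Dox. GADL1 passed the filter only through the 3 OE with Dox libraries and its call there is not counted. Of the other 3 tested decarboxylases of this kind none was higher and 1 was lower with doxycycline (12.8% and 12.9% of all tested genes), and of all 4, 1 was higher and none lower in KO (6.64% and 7.15%).

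Vesicular transporters of other transmitters differed from SLC32A1. Of 5 tested genes 3 were higher and 1 lower with doxycycline (12.8% and 12.9% of all tested genes), and none was higher and 2 were lower in KO against WT (6.64% and 7.15%). Among the higher genes SLC18A2 passed the filter only through the OE with Dox libraries, at 18.5 ± 7.99 there and 4.28 ± 0.563 in OE without Dox, and without it 2 of 4 were higher. SLC17A7, a vesicular glutamate transporter, rose to 92.5 ± 40.8 in OE with Dox, against 7.32 ± 0.0756 in OE without Dox (log2 fold 3.38, SE 0.44, adjusted p = 1.1e-05 by limma). SLC17A6, another glutamate transporter, fell to 12.0 ± 4.56 in KO, against 47.0 ± 10.6 in WT (-1.93, SE 0.34, adjusted p = 0.00064). The lower SLC17A7 in KO, 6.66 ± 1.64 against 24.5 ± 18.4 in WT (-1.52, adjusted p = 0.012), was not called without WT replicate 1 (-0.97, adjusted p = 0.11).

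Forebrain transcription factors of GABA neurons were low with doxycycline, like GAD2 and SLC32A1. Of 17 tested factors 1 was higher and 15 were lower in OE with Dox against OE without Dox (12.8% and 12.9% of all tested genes), with a list median of -2.84 and 0.02 over all genes. DLX1 had 106, 158 and 54.4 in OE with Dox, against 1253, 599 and 796 in OE without Dox (log2 fold -3.10, SE 0.31, adjusted p = 2.3e-06 by limma). LHX6, a factor of MGE interneurons, fell to 4.31 ± 4.36 in OE with Dox, against 229.9 ± 162 in OE without Dox (-5.56, SE 0.55, adjusted p = 3.6e-06). The 1 higher factor was MAF, at 849 ± 285 in OE with Dox and 210.5 ± 34.3 in OE without Dox (1.96, adjusted p = 5.6e-06).

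In KO against WT the same 17 factors gave 5 higher and 3 lower (6.64% and 7.15% of all tested genes), with a median of 0.14 and -0.02 over all genes, and 3 higher without WT replicate 1. LHX8, an MGE factor, rose to 786 ± 212 in KO, against 24.9 ± 11.3 in WT (log2 fold 4.97, SE 0.32, adjusted p = 4.4e-08 by limma), and NKX2-1 rose to 2774 ± 465, against 553 ± 157 (2.35, SE 0.35, adjusted p = 0.00038). MAF fell to 43.0 ± 8.19 in KO, against 323 ± 31.7 in WT (-2.90, adjusted p = 3.9e-08). DLX2 had 569 ± 67.6 in KO and 304 ± 69.9 in WT (0.92, adjusted p = 0.042). That call was lost without any 1 of the 3 WT or 5 KO libraries, OE without Dox replicate 3 or OE with Dox replicate 1, with adjusted p up to 0.18. DLX1 (0.82, adjusted p = 0.069) and LHX6 (1.31, adjusted p = 0.10) did not pass. LHX8 and NKX2-1 were also higher in OE without Dox, at 739.7 ± 319 and 1872 ± 509, than in WT (4.81, adjusted p = 2.2e-06, and 1.77, adjusted p = 0.017).

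**Figure D5:**
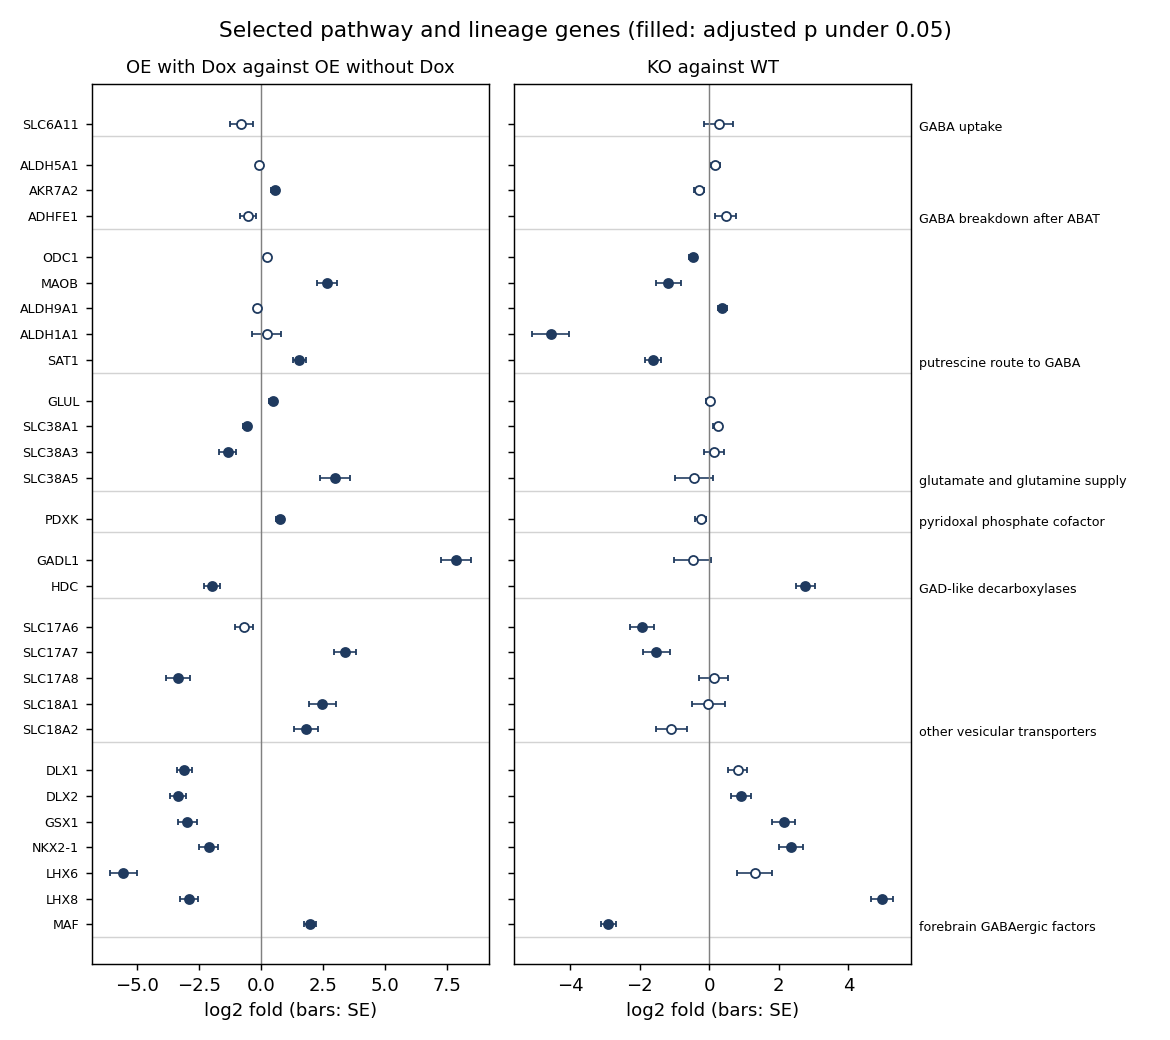
Log2 folds from limma (points; bars are standard errors) of selected tested genes around GABA and of forebrain factors, in OE with Dox against OE without Dox (left) and KO against WT (right), with filled points at an adjusted p under 0.05. On the left MAF is at 1.96 while DLX1 is at -3.10 and LHX6 at -5.56, and on the right LHX8 is at 4.97. The GADL1 point on the left rests on 1 read in OE without Dox, and its call is not counted.

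Factors of GABA neurons outside the forebrain gave 2 higher and 3 lower of 11 tested with doxycycline (12.8% and 12.9% of all tested genes), and 0 higher and 4 lower of 12 in KO against WT (6.64% and 7.15%), 2 lower without WT replicate 2 or 3. LHX5, a factor of spinal and other inhibitory neurons, fell to 42.5 ± 14.5 in OE with Dox, against 155 ± 41.2 in OE without Dox (log2 fold -1.88, adjusted p = 0.0013 by limma). It fell to 72.8 ± 35.0 in KO, against 441 ± 154 in WT (-2.65, adjusted p = 4.4e-05). GATA2, a factor of midbrain GABA neurons, fell to 2.19 ± 1.34 in KO, against 54.6 ± 27.9 in WT (-4.05, adjusted p = 5.0e-06). LHX5 and GATA2 were also called lower in OE without Dox than in WT. Between KO and OE without Dox, GATA2 was called lower in KO and LHX5 was not called. PTF1A, a factor of hindbrain and spinal GABA neurons, had 19.7 ± 14.9 in OE with Dox, 0.613 ± 0.531 in OE without Dox, 0.915 ± 0.633 in KO and 2.38 ± 0.939 in WT. It passed the filter only through the OE with Dox libraries and is left out of the 11. LBX1, a factor of dorsal spinal neurons, had 43.1 ± 22.7 in OE with Dox and 5.84 ± 7.02 in OE without Dox (3.09, adjusted p = 0.0018). The whole list summed to 221 to 236 in OE with Dox and 308 to 485 in OE without Dox. It summed to 101 to 387 in KO and 511 to 1057 in WT.

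Cells of other kinds that could carry GABA genes were looked for by their markers, beside 12.8% higher and 12.9% lower among all tested genes with doxycycline and 6.64% and 7.15% in KO against WT. INS, the insulin gene of pancreatic beta cells, which also use GABA, was at 0 in every library. The 7 pancreatic endocrine genes summed to 244 to 406 in OE with Dox and 519 to 688 in OE without Dox. They summed to 448 to 832 in KO and 471 to 651 in WT, and INSM1 and CHGA had the highest means. Of the 7, 3 were at 0 in OE without Dox and in WT, 2 in KO and 1 in OE with Dox. With doxycycline none of 4 tested genes was higher and 3 were lower (1 lower without KO replicate 4, OE without Dox replicate 2 or OE with Dox replicate 2). In KO against WT 1 of the 4, CHGA, was higher and none was lower. CHGA was also called higher in OE without Dox than in WT. Mesenchyme and neural crest markers summed to 1719 to 6989.95 in OE with Dox, 985 to 2869.6 in OE without Dox, 1055 to 1921 in KO and 1369 to 2668 in WT, with SOX10 at 0 in every library. Of 10 tested, 5 were higher and 1 lower with doxycycline (1 to 2 higher without OE without Dox replicate 1 or 3 or OE with Dox replicate 1 or 2), and 0 higher (1 without OE with Dox replicate 2 or 3) and 3 lower in KO. Epithelium and choroid plexus markers summed to 409 to 924 in OE with Dox, 135 to 489.5 in OE without Dox, 103 to 146 in KO and 239 to 384 in WT, with 5 of 8 higher with doxycycline (3 without OE with Dox replicate 2) and 4 of 8 lower in KO (2 without WT replicate 1). Radial glia and astrocyte markers summed to 19572 to 24796 in OE with Dox, 18796 to 19165 in OE without Dox, 14443 to 18194 in KO and 22169.8 to 26079.5 in WT, and 2 of 9 were higher and 5 lower with doxycycline (3 without OE with Dox replicate 3 or OE without Dox replicate 2), while 1 was higher and 4 were lower in KO. Their part in the levels of the 4 genes was not tested.

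Genes whose pattern over the 14 libraries was most like each of the 4 were named by Pearson correlation of log2 values among 9353 genes with a mean of at least 100. The points share 4 groups, so r mainly follows the group means and is a description. GAD1 was most like NFIA (r = 0.97), LSAMP (0.95), TRIB2 (0.95), NRP1 (0.94) and IGSF3 (0.94). NFIA averaged 473 in OE with Dox, 46.0 in OE without Dox, 52.3 in KO and 9.51 in WT. GAD2 was most like DLX1 (0.97), PDPN (0.97), HES4 (0.97), PSD (0.96) and DLL1 (0.96), and SLC32A1 was most like TRIM67 (0.98), DLX1 (0.98), NOVA2 (0.97), DLX2 (0.97) and JPH3 (0.97). ABAT was most like SEPTIN3, NNAT, POU2F2, SYT1 and SLC8A1 (each 0.99), of which the synaptic vesicle gene SYT1 averaged 269 in OE with Dox, 1001 in OE without Dox, 1203 in KO and 695 in WT.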

How the data were processed

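The deposited table holds a coverage signal per gene: read counts that the authors divided by 1 size factor per library, per the submitters' processing notes. The tools listed there are HTSeq 0.9.1 and TopHat2 2.1.1, with DESeq2 under R 3.4.0, and the build is hg38. The annotation release and the strand setting of the counting are not given in the sources used here. Of 58051 gene identifiers 56948 were named with GENCODE.

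Dividing each value by its library's step (0.866 to 0.947) gave whole reads for 100.0% of values within 0.01. A count of 0 allows 3 reads, for counting error only. Genes at 10 or more normalized counts in at least 3 libraries were fitted in 1 limma model (limma 3.58.1, R 4.3.3, trend and robust, 10 residual degrees of freedom) over the 14 libraries, on log2 values with 1 added, which understates changes of low genes. P-values are two-sided and Benjamini-Hochberg adjusted over 17102 genes, with a threshold of 0.05. The script was tested on simulated data. Alternatives were other pseudocounts, filters and scalings, a replicate block, each library left out, and edgeR 4.0.16 and DESeq2 1.42.0 on the recovered reads, where edgeR called 2418 genes in KO against WT and 4420 with doxycycline, against 2359 and 4393 by limma.

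The genes, lists and tests were chosen with earlier results of these data known. Genes named beside the 4 followed a rule: from each list up to 3 of highest mean and up to 4 of largest called change in KO against WT and with doxycycline, and the 5 most alike. GAP43 is outside it. Some genes that the rule names are not reported here. Same-numbered libraries deviated together in OE with Dox and OE without Dox (r = 0.220, 0.248 and 0.402) and in OE without Dox and WT (r = 0.222, 0.175 and 0.283). All r were also above 0 in KO and OE without Dox (0.221, 0.049 and 0.102) and in OE with Dox and WT (0.056, 0.037 and 0.250). The replicate 2 pair was below 0 in KO and WT (-0.289) and in OE with Dox and KO (-0.050). Numbers come from the sample labels.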

Additional observations from a re-analysis of the deposited data

Results flagged for a closer look

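LBX1, a factor of dorsal spinal neurons, had 3.59 normalized counts in KO replicate 4, while the other KO libraries lay between 0 and 0.945. The gap to the nearest library was 0.737 of the range of the group, above the critical value of 0.71 for 5 libraries. GATA2 had 4.47 in KO replicate 5, while the other KO libraries lay between 0.944 and 1.89, a gap of 0.732 of the range. These were 2 of 43 genes checked in the KO libraries, and chance alone gives about 1 in 20. All of these values are within a few reads.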

How the results depend on the processing

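Over 26 alternatives, 759 values of the 4 genes and of the counts of called genes were rated the same, 8 moved, 11 lost a call and 2 turned direction. Folds in contrasts used by the choice were rated the same if they moved by less than the pooled within-group SD. Other folds had to keep their direction and side of the threshold, and counts of called genes had to stay within a set factor. Those that turned were SLC32A1 in OE without Dox against WT, at -0.06 without WT replicate 2 and -0.15 without OE without Dox replicate 1, with a range of -0.15 to 0.33 on leaving out 1 library. The GAD1 fold in that comparison was 1.11 with no filter (adjusted p = 0.13 by limma), 1.11 with the replicate block (0.069) and 1.11 from those groups alone (0.13), and 0.64 to 1.41 on leaving out 1 library. Leaving out 1 library gave 0.57 to 0.71 for ABAT there. With doxycycline it gave 2.15 to 2.92 for GAD1, -4.03 to -2.63 for GAD2 and -2.20 to -1.89 for ABAT, and for GAD1 in KO against OE without Dox 0.067 to 0.83. Genes called in OE without Dox against WT numbered 982, and 419 to 1077 on leaving out 1 library, with 419 without OE without Dox replicate 1, 543 without its replicate 3 and 456 without WT replicate 3. In KO against OE without Dox they numbered 360, and 176 to 374, the lowest without OE without Dox replicate 2. The causes were not tested. The replicate block ended no other call of the 4 genes. Of 51 calls of other named genes 10 were lost under some alternative and none turned direction. GAD2 with doxycycline rests on 89 reads over 3 libraries, which limits its fold and every ratio to it.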
